A study of Mus musculus with 11 samples.

Results

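The genes described here are 7 mouse genes of dopamine handling, taken by their Ensembl IDs from 47069 genes counted in RNA-seq libraries of the developing mouse retina. They encode 2 enzymes of dopamine synthesis (Th and Ddc), 2 transporters (Slc6a3 and Slc18a2) and 3 receptors (Drd1, Drd2 and Drd4). The rule that took them used names and functions and no measured value. All 7 had at least 1 count in some library, and 5 of the 7 passed the filter on low counts. Ddc and Slc6a3 did not pass.

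In the retina, dopamine is made by a sparse class of amacrine cells. Tyrosine hydroxylase (Th) converts tyrosine to L-DOPA in the rate-limiting step, Ddc converts L-DOPA to dopamine, Slc18a2 (VMAT2) loads it into vesicles and Slc6a3 (DAT) takes it back up after release. Drd1 encodes a receptor that couples to G proteins that raise cAMP, and Drd2 and Drd4 encode receptors of the class that lowers it. In the mature retina Drd2 serves as the autoreceptor of the dopaminergic amacrine cells, and Drd4 is known for its expression in photoreceptors. Slc18a2 and Ddc also act in cells that handle other monoamines.

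The study set retinas in which ganglion cells carry a potassium channel beside control retinas, on the C57BL/6 background, at postnatal days 4 and 8 (P4 and P8). The Kir2.1 groups carried a transgene of human Kir2.1 fused to eYFP, behind a CAG promoter and a flox-flanked STOP, and Brn3b-Cre, which removes the STOP in Brn3b-expressing cells. Brn3b marks most but not all retinal ganglion cells, and the channel is an inward rectifier that lowers excitability. The control group is called wild type in the genotype label, whereas the protocol names Brn3b-cre mice, so whether the controls carried Cre is unclear. The later age is P8 in the titles and the age label and P11 in the protocol. There were 2 libraries of wild type at P4 and 3 each of Kir2.1 at P4, wild type at P8 and Kir2.1 at P8. The labels do not say that the replicates came from separate animals, so p-values measure only the spread between these samples.

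The libraries held 9362215 to 12478838 counts in genes, and 3 counts corresponded to 0.230 to 0.312 CPM (counts scaled to a common library size). The source label names retinal ganglion cells, but the protocol dissociates whole retina and no sorting step is described. The 10 amacrine marker genes summed to 925 to 3239 CPM and the 10 ganglion cell markers to 71.9 to 1118 CPM, so RNA of other retinal cells was present in every library. Wild-type P4 replicate 2 stood apart from the other P4 libraries. Its bipolar markers summed to 414 CPM against 117 to 174 CPM, and its markers of dividing cells to 831 CPM against 1868 to 2430 CPM. Wild-type P8 replicate 1 had 755 CPM of rod markers compared with 2916 to 6530 CPM in the remaining P8 libraries, and the highest amacrine sum (3239 CPM). Kir2.1 P8 replicate 2 had 31325 genes with a count, against 22609 to 24591 elsewhere, and 31.5 CPM of pigment epithelium and ciliary body markers against 4.57 to 7.77 CPM. It also had the fewest counts in genes (9362215), and 69.4% of its unique reads lay on no annotated feature, against 57.0% to 62.4% elsewhere. The transgene is a human cDNA, so counts of mouse genes do not check which libraries carried it. In bulk tissue, fewer cells of a type and less RNA per cell cannot be told apart.

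The starts of the 4 genes that changed with age are shown because Th and Slc18a2, which moved in opposite directions, hold the same 8-base element there. Each sequence is the RefSeq window (GRCm38.p6) from 250 bases before to 50 bases after the transcription start, 5′ to 3′ on the gene's strand. Capitals mark TGACGTCA, the cAMP response element. The windows are Th at chr7:142899946-142900245 (minus strand), Slc18a2 at chr19:59260628-59260927 (plus), Drd2 at chr9:49340153-49340452 (plus) and Drd4 at chr7:141291768-141292067 (plus).
Th: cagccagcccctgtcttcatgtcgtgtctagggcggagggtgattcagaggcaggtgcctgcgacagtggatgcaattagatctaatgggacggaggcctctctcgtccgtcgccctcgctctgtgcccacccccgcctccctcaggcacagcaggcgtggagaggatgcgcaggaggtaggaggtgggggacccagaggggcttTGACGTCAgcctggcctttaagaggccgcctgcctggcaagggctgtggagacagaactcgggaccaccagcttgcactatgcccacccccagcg
Slc18a2: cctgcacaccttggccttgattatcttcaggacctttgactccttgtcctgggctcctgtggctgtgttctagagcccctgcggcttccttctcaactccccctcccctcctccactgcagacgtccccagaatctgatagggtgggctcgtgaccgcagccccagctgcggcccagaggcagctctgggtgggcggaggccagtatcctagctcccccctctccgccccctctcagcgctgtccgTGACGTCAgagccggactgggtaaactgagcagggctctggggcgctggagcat
Drd2: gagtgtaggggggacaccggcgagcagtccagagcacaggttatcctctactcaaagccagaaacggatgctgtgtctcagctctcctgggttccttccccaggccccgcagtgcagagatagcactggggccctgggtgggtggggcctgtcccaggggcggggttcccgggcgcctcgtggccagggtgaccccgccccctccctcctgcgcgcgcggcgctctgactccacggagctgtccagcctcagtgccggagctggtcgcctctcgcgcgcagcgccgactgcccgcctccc
Drd4: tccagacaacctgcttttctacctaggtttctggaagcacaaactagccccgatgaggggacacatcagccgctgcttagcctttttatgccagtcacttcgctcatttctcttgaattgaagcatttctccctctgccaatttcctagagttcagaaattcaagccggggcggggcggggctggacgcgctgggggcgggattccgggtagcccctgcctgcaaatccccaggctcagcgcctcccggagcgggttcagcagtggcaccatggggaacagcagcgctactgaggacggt
The element begins at position -45 of Th and -4 of Slc18a2, counted from the RefSeq transcription start. For Th this start lies inside the GENCODE span of the gene (142892752 to 142931128, minus strand), whose 5′ end is further upstream. It reads the same on both strands, and 1.79% of 32851 RefSeq promoters of the same length hold it. Other motifs were also searched on both strands. AAAGGTCA, the letters bound by Nr4a2, stood in the upstream Ddc promoter at -73, on the strand opposite to the gene, and is held by 1.51% of promoters. TAATCC, the letters bound by the photoreceptor factor Crx, was in none of the windows of the 7 genes and is held by 7.06% of promoters. All 7 genes had a window, and Ddc and Drd1 had 2 each. A match is a description of letters, and binding was not measured.

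Th, the rate-limiting enzyme (ENSMUSG00000000214; chromosome 7, 142892752 to 142931128, minus strand), was a low-count gene that was higher at P8 than at P4 in every library. In wild type it was at 0.598 and 1.01 CPM at P4 and at 4.67, 2.21 and 1.87 CPM at P8. In Kir2.1 it was at 0.464, 0.996 and 0.961 CPM at P4 and at 2.07, 1.04 and 2.05 CPM at P8. All P8 values lay above all P4 values, by a narrow margin at Kir2.1 P8 replicate 2, and the highest value was in wild-type P8 replicate 1, the library with the highest amacrine marker sum. The values rest on 5 to 13 counts a library at P4 and 10 to 51 at P8. Averaged over the genotypes, Th rose by 1.46 ± 0.42 (SE) on the log2 scale from P4 to P8 (edgeR adjusted p = 0.0264), or 2.75-fold, with a 95% interval of 0.54 to 2.38. Higher calls made up 10.7% of the 18188 genes tested in this comparison, and 4.52% of genes had P8 values that were all above all P4 values.

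The call for Th depended on single libraries. It held in 6 of the 11 fits that left out 1 library, with log2 changes between 1.18 (wild-type P8 replicate 1 left out) and 1.67 (wild-type P4 replicate 2 left out). The edgeR adjusted p was 0.134 once wild-type P4 replicate 1 was dropped, and 0.0635 once wild-type P8 replicate 1 was. It was also lost without Kir2.1 P4 replicate 1 (edgeR adjusted p = 0.0581), Kir2.1 P8 replicate 1 (edgeR adjusted p = 0.0584) and Kir2.1 P8 replicate 3 (edgeR adjusted p = 0.0604). Set against amacrine markers, Th gave 0.0288 to 0.0589 counts per 100 marker counts at P4 and 0.0985 to 0.164 at P8, without overlap. How many genes do so on this scale was not counted. The amacrine sum itself was 1610 to 2139 CPM at P4 and 925 to 3239 CPM at P8. Within wild type the age difference was 1.84 ± 0.64 (edgeR adjusted p = 0.134) and within Kir2.1 it was 1.08 ± 0.55 (edgeR adjusted p = 0.220).

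Ddc, which makes dopamine from L-DOPA (ENSMUSG00000020182; chromosome 11, 11814101 to 11898144, minus strand), was at the edge of detection. It had 0 and 1 counts in wild type at P4, and 0, 1 and 1 in Kir2.1. At P8 it had 0, 8 and 0 counts in wild type and 4, 8 and 8 in Kir2.1. Counts above 3 thus appeared only at P8, in 1 of 3 wild-type and 3 of 3 Kir2.1 libraries, and the Kir2.1 P8 values (0.331, 0.831 and 0.713 CPM) overlapped the wild-type ones (0, 0.680 and 0 CPM). The highest of these was in Kir2.1 P8 replicate 2, the library with 31325 genes with a count, and the part of background reads in its 8 counts was not tested. In a fit without the filter, the averaged age difference was 2.70 ± 1.30 on the log2 scale (edgeR adjusted p = 0.204), and fitted values at counts this low depend on the prior count. Ddc overlaps the antisense gene 1700042O10Rik, and the strand setting of the counting is not given in the sources used here.

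Slc6a3, the plasma membrane dopamine transporter and a defining marker of dopaminergic cells (ENSMUSG00000021609; chromosome 13, 73536747 to 73578672, plus strand), was likewise near the floor. It had 2 and 3 counts in wild type at P4 and 0, 3 and 0 in Kir2.1. At P8 it had 0, 12 and 0 counts in wild type and 4, 4 and 0 in Kir2.1. Both ages and both genotypes thus held libraries without a count or near it, and the highest value was 1.02 CPM in wild-type P8 replicate 2. No difference in Slc6a3 was detectable at this depth, and without the filter the averaged age difference was 1.08 ± 1.21 (edgeR adjusted p = 0.807).

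**Figure D1:**
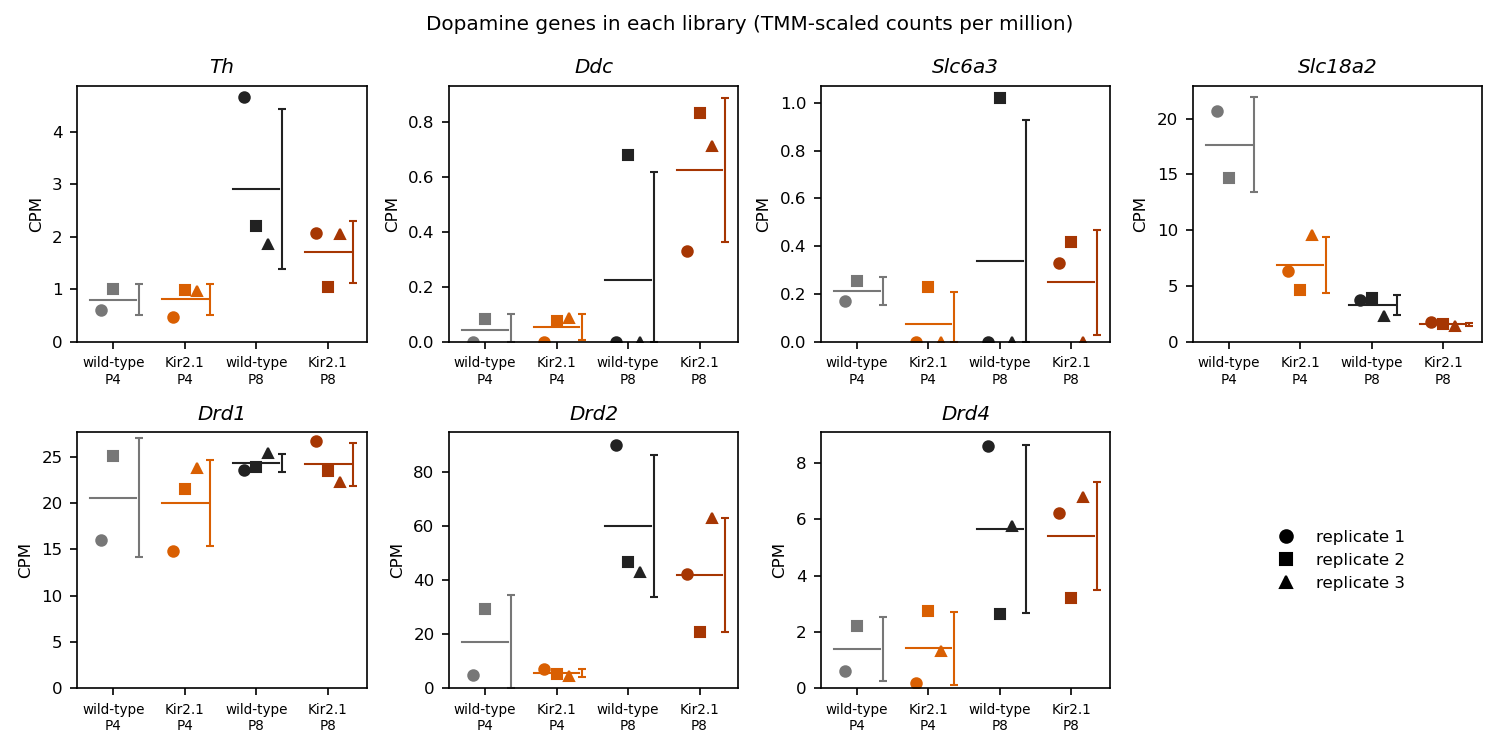
CPM of each of the 7 genes in every library (points), by genotype and age, with the group mean (line) and SD (bar, cut at 0). Slc18a2 runs from 20.7 CPM in wild-type P4 replicate 1 down to 1.43 CPM in Kir2.1 P8 replicate 3, Drd2 at P8 lies above all P4 libraries except that wild-type P4 replicate 2 lies above Kir2.1 P8 replicate 2, and Drd1 stays between 14.9 and 26.7 CPM.

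Slc18a2, the vesicular monoamine transporter (ENSMUSG00000025094; chromosome 19, 59260896 to 59296012, plus strand), fell from P4 to P8 in both genotypes. It was at 20.7 and 14.7 CPM in wild type and 6.31, 4.67 and 9.61 CPM in Kir2.1 at P4. Its P8 values were 3.75, 3.91 and 2.27 CPM in wild type and 1.74, 1.56 and 1.43 CPM in Kir2.1. All P4 libraries lay above all P8 libraries, as in 7.11% of genes tested, and within each age all wild-type libraries lay above all Kir2.1 libraries. The group means were 17.7 ± 4.2 CPM (SD, n = 2), 6.87 ± 2.51, 3.31 ± 0.90 and 1.57 ± 0.16 CPM (SD, n = 3 each) in that order.

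The fall with age held in each genotype. It was -2.42 ± 0.35 (SE) on the log2 scale in wild type (edgeR adjusted p = 0.00216), a level at P8 of 0.187 of that at P4. In Kir2.1 it was -2.11 ± 0.35 (edgeR adjusted p = 0.00188), a level of 0.231 of that at P4. Genes called lower made up 3.58% of genes in the wild-type comparison and 8.73% in the Kir2.1 comparison, and genes whose P8 values were all lower made up 16.9% and 18.7%. Averaged over the genotypes the change was -2.26 ± 0.25 (edgeR adjusted p = 6.37e-05), with a 95% interval of -2.80 to -1.73, where 12.1% of genes were called lower. The call held in all 11 fits that left out 1 library, with values from -2.38 to -2.10, and in all fits within wild type and within Kir2.1.

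The lower Slc18a2 values in Kir2.1 did not pass the test at either age. At P4 the log2 difference was -1.36 ± 0.34 (SE), with an unadjusted 95% interval of -2.10 to -0.63 and an edgeR adjusted p of 0.677, and the Kir2.1 level was 0.388 of the wild-type level. At P8 it was -1.06 ± 0.35, with an unadjusted interval of -1.83 to -0.29 and an edgeR adjusted p of 0.699, and the level was 0.479 of wild type. No gene was called in either comparison (0% of 18188 genes by edgeR, with 1314 and 1240 at an unadjusted p under 0.05, and 34 and 3 called by DESeq2). Separation of the groups with Kir2.1 lower was found in 14.4% of genes at P4 and 5.15% at P8. The Kir2.1 effects at the 2 ages differed by 0.30 ± 0.50 on the log2 scale (edgeR adjusted p = 0.9998), with 0.04 when wild-type P4 replicate 1 was left out and 0.62 when Kir2.1 P4 replicate 3 was. In the authors' deposited tables the log2 fold change was -1.19 at P4 with an adjusted p of 0.0987, and -1.24 at P8 with a p of 0.0571 and no adjusted p. Among genes with an adjusted p, those tables called 314 of 13830 at P4 (2.27%) and 974 of 13396 at P8 (7.27%). Without a filter on low counts, Slc18a2 was called at P4 (-1.37, edgeR adjusted p = 0.0306, where 0.818% of 36534 genes were called lower).

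Ganglion cell markers moved with Slc18a2. Their sum was 1118 and 706 CPM in wild type and 518, 178 and 556 CPM in Kir2.1 at P4. At P8 it was 142, 205 and 71.9 CPM in wild type and 148, 102 and 119 CPM in Kir2.1. All P8 sums lay below all P4 sums, except that Kir2.1 P4 replicate 2 (178 CPM) lay below wild-type P8 replicate 2. The genotypes separated at P4 and overlapped at P8. Per 100 ganglion marker counts, Slc18a2 gave 1.85 and 2.08 counts in wild type and 1.22, 2.63 and 1.73 in Kir2.1 at P4, where the genotypes overlapped. At P8 it gave 2.64, 1.91 and 3.16 in wild type and 1.17, 1.52 and 1.20 in Kir2.1, where they did not, and how many genes separate in this way was not counted. On this scale the ages also overlapped in each genotype, and the part of ganglion cell RNA in the Slc18a2 differences was not tested. The 5′ end of Slc18a2 overlaps the antisense gene Gm29261 (chromosome 19, 59259512 to 59261419), whose reads could be told apart only by strand.

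**Figure D2:**
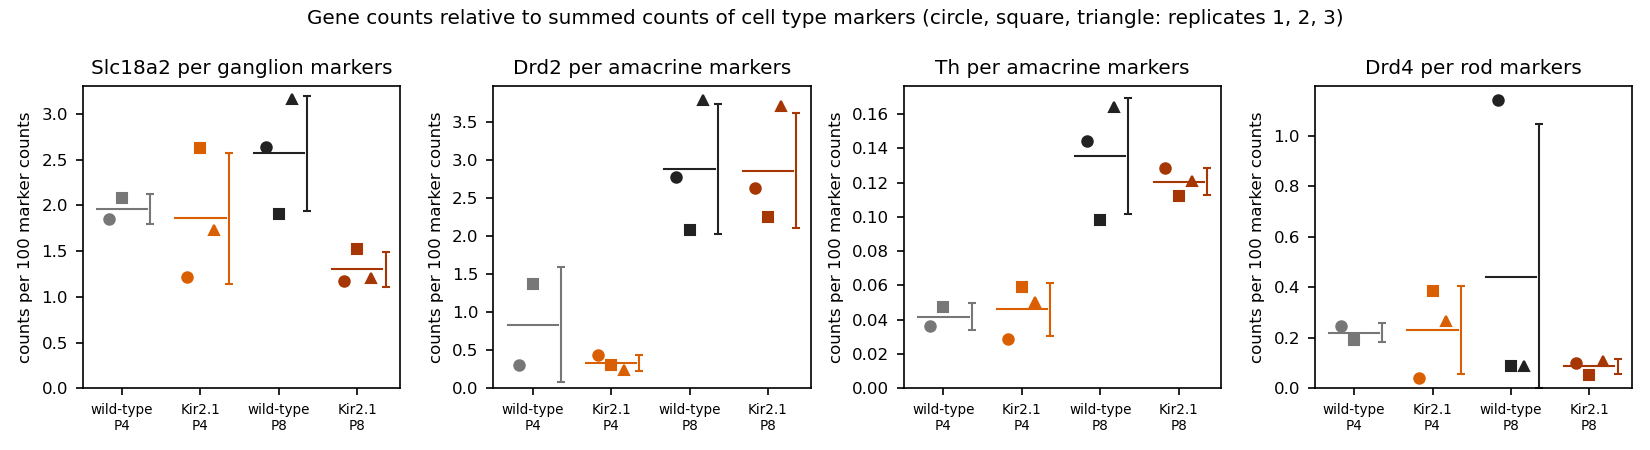
Counts of a gene per 100 counts of a cell type's markers, in every library (points, with group mean as a line and SD as a bar cut at 0), for Slc18a2 with ganglion cell markers, Drd2 and Th with amacrine markers, and Drd4 with rod markers. For Th and Drd2 per amacrine marker all P8 libraries lie above all P4 libraries, whereas Slc18a2 per ganglion marker overlaps between the ages (1.22 to 2.63 at P4 and 1.17 to 3.16 at P8).

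Drd1, the receptor that raises cAMP (ENSMUSG00000021478; chromosome 13, 54051183 to 54055705, minus strand), stayed between 14.9 and 26.7 CPM in all 11 libraries. It was at 16.1 and 25.1 CPM in wild type and 14.9, 21.5 and 23.8 CPM in Kir2.1 at P4. Its P8 values were 23.6, 23.9 and 25.4 CPM in wild type and 26.7, 23.5 and 22.3 CPM in Kir2.1. The P8 libraries lay close together, the P4 libraries spread more widely, and all 4 groups overlapped. The genotype difference was -0.04 ± 0.23 on the log2 scale at P4 (edgeR adjusted p = 0.978), with a 95% interval of -0.54 to 0.46. At P8 it was -0.01 ± 0.20 (edgeR adjusted p = 0.997), with an interval of -0.45 to 0.44. The averaged age difference was 0.26 ± 0.15 (edgeR adjusted p = 0.267), with an interval of -0.08 to 0.59.

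Drd2, the receptor that includes the autoreceptor form (ENSMUSG00000032259; chromosome 9, 49340627 to 49408177, plus strand), rose from P4 to P8. In wild type it was at 4.95 and 29.4 CPM at P4 and at 90.1, 46.7 and 43.1 CPM at P8. In Kir2.1 it was at 7.15, 5.13 and 4.63 CPM at P4 and at 42.4, 20.8 and 62.8 CPM at P8. The ages separated within each genotype, with P8 higher, as in 14.2% of genes tested in wild type and 19.3% in Kir2.1. Across genotypes they overlapped through wild-type P4 replicate 2, which lay above Kir2.1 P8 replicate 2.

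In Kir2.1 the rise was 2.90 ± 0.58 on the log2 scale (edgeR adjusted p = 0.00558), or 7.47-fold, where 7.93% of genes were called higher. In wild type the difference was 1.80 ± 0.63 and did not pass (edgeR adjusted p = 0.134), where 0.803% of genes were called higher. The difference between these age effects was 1.10 ± 0.81 (edgeR adjusted p = 0.9998). It was -0.70 with wild-type P4 replicate 2 left out and 1.88 with wild-type P4 replicate 1 left out, so a difference between the genotypes was not shown. Averaged over the genotypes the rise was 2.35 ± 0.43 (edgeR adjusted p = 0.00226), or 5.10-fold, and it was called in all 11 fits that left out 1 library, with values from 1.96 to 3.25 (the highest with wild-type P4 replicate 2 left out). With wild-type P4 replicate 2 left out, the wild-type difference was 3.60 and was called (edgeR adjusted p = 0.00752), and without wild-type P4 replicate 1 it was 1.02.

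At P4 the Kir2.1 libraries had 5.64 ± 1.33 CPM of Drd2 (SD, n = 3) against 17.2 ± 17.3 CPM in wild type (SD, n = 2). The log2 difference was -1.61 ± 0.62 (edgeR adjusted p = 0.677), and wild-type replicate 2 decided it. Without that library the difference was 0.18 rather than -1.61, and without wild-type P4 replicate 1 it was -2.39. In the authors' deposited table, Drd2 was called lower at P4, with a log2 fold change of -2.07 and an adjusted p of 2.54e-05, among 314 genes called of 13830 with an adjusted p (2.27%). The columns of that table name no sample. Its P4 row for Ddc has a mean normalized count of 1.66 and a log2 fold change of -3.60. No P4 library here had more than 1 Ddc count, so that table may rest on other counts than those used here. The fit without a filter also called Drd2 lower at P4 (-1.62, edgeR adjusted p = 1.22e-09). Its SE was 0.23 there, against 0.62 in the filtered fit, so this call rests on the smaller SE and not on a larger difference. Wild-type P4 replicate 2 is the library with the high bipolar sum and the low dividing-cell sum, and the part of this in the Drd2 difference was not tested. At P8 the difference was -0.51 ± 0.52 (edgeR adjusted p = 0.812), with the groups overlapping. It was -0.09 with wild-type P8 replicate 1 left out and -0.92 with Kir2.1 P8 replicate 3 left out. For P8 the authors' deposited table gives -0.70 with an adjusted p of 0.673.

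Per 100 amacrine marker counts, Drd2 gave 0.244 to 1.37 counts at P4 and 2.08 to 3.79 at P8, without overlap between the ages. How many genes separate on this scale was not counted. Of the 10 amacrine markers, 2 were called higher and 2 lower in the averaged age comparison. On this scale wild-type P4 replicate 2 remained the highest P4 library. Per 100 bipolar marker counts, Drd2 gave 2.84 to 7.10 counts at P4 and 1.74 to 17.2 at P8, and the ages overlapped. Bipolar markers themselves summed to 117 to 414 CPM at P4 and 525 to 1472 CPM at P8, so they rose with age as Drd2 did. Within P8 the order was reversed in each genotype. Wild-type sums of 525, 906 and 1472 CPM went with 90.1, 46.7 and 43.1 CPM of Drd2. Kir2.1 sums of 1007, 1083 and 1195 CPM went with 62.8, 42.4 and 20.8 CPM. The part of bipolar RNA in the rise of Drd2 was not tested.

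Drd4, the photoreceptor-associated receptor (ENSMUSG00000025496; chromosome 7, 141292006 to 141296464, plus strand), was low at P4 and higher at P8. In wild type it was at 0.598 and 2.20 CPM at P4 and at 8.60, 2.63 and 5.77 CPM at P8. In Kir2.1 it was at 0.186, 2.76 and 1.31 CPM at P4 and at 6.20, 3.22 and 6.77 CPM at P8. The ages separated within each genotype, beside 14.2% of genes with P8 all higher in wild type and 19.3% in Kir2.1, and overlapped across them, since Kir2.1 P4 replicate 2 lay just above wild-type P8 replicate 2. Averaged over the genotypes, Drd4 rose by 1.95 ± 0.55 on the log2 scale (edgeR adjusted p = 0.0232), or 3.87-fold, with a 95% interval of 0.76 to 3.15, where 10.7% of genes were called higher. It was 2.56 with wild-type P4 replicate 2 left out. The call was lost without wild-type P4 replicate 1 (1.63, edgeR adjusted p = 0.120) and without Kir2.1 P8 replicate 3 (1.86, edgeR adjusted p = 0.0531), and held in 9 of 11 such fits.

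Within 1 genotype Drd4 did not pass the test, at 2.01 ± 0.83 in wild type (edgeR adjusted p = 0.204) and 1.90 ± 0.71 in Kir2.1 (edgeR adjusted p = 0.0930). With 1 library left out these ran from 1.36 to 3.22 in wild type, lowest without wild-type P4 replicate 1 and highest without wild-type P4 replicate 2, and none was called. In Kir2.1 they ran from 1.38 without replicate 1 of P4 to 2.82 without replicate 2 of P4, and the last was called (edgeR adjusted p = 0.0478). The Kir2.1 difference was called by DESeq2 (1.91, DESeq2 adjusted p = 0.0358), which called 10.1% of genes higher, and by limma voom (2.48, voom adjusted p = 0.0326), which called 11.4% higher. Rod markers summed to 241 to 1138 CPM at P4 and 755 to 6530 CPM at P8, and the ages overlapped through wild-type P8 replicate 1 and wild-type P4 replicate 2. Per 100 rod marker counts, Drd4 gave 0.0425 to 0.385 counts at P4 and 0.0542 to 0.107 in 5 of the 6 P8 libraries. The other P8 library, wild-type replicate 1, gave 1.14, the highest value, with the fewest rod marker counts at P8 and the most Drd4. Cone markers summed to 238 to 395 CPM at P4 and 275 to 621 CPM at P8, and the ages overlapped. Per 100 cone marker counts, Drd4 gave 0.0707 to 0.698 counts at P4 and 0.424 to 2.096 at P8. On this scale 4 P8 libraries (1.52 to 2.096) lay above all P4 libraries, and wild-type P8 replicate 2 (0.424) and Kir2.1 P8 replicate 2 (0.622) lay within the P4 range. The part of rod and cone RNA in the rise of Drd4 was not tested.

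Neither Th nor Drd4 differed between the genotypes beyond the spread between replicates. For Th the log2 difference was 0.01 ± 0.64 at P4 (edgeR adjusted p = 0.997), with a 95% interval of -1.38 to 1.40. Its P8 difference was -0.75 ± 0.52 (edgeR adjusted p = 0.737), with an interval of -1.88 to 0.39. That P8 value was -0.24 with wild-type P8 replicate 1 left out and -0.98 with wild-type P8 replicate 3 left out. For Drd4 it was 0.05 ± 0.83 at P4 (edgeR adjusted p = 0.995), with an interval of -1.77 to 1.86, and -0.06 ± 0.66 at P8 (edgeR adjusted p = 0.989), with an interval of -1.50 to 1.38. These intervals are wide, so changes of more than 2-fold in either direction at P4 lie within them.

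**Figure D3:**
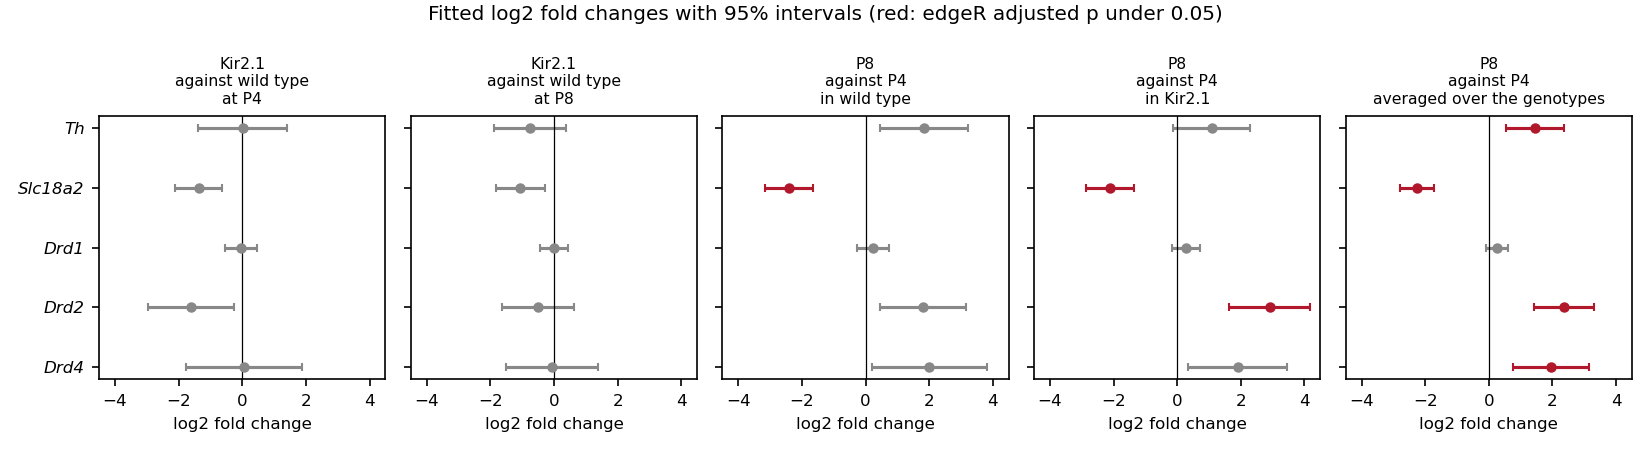
Log2 fold changes with 95% intervals from edgeR for the 5 genes tested, in the genotype comparisons at P4 and P8 and the age comparisons in wild type, in Kir2.1 and averaged. Slc18a2 lies below 0 in all of them and passes the test only in the age comparisons, and Drd1 lies near 0 throughout.

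Of the 5 genes tested, 3 rose (Th, Drd2 and Drd4), 1 fell (Slc18a2) and 1 did not pass the test (Drd1) in the averaged age comparison, in which 22.8% of all genes tested were called. Genes low at P4 could pass the filter through their P8 values alone, so this count is a description and not support. The averaged comparison and those within each genotype share their libraries, as do the age and the genotype comparisons.

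Without a filter on low counts, 4 further calls were made by edgeR. Drd2 was called for the difference between the age effects (1.11, edgeR adjusted p = 0.0486, where 0.334% of 36534 genes were called higher). In the filtered fit the sign of this difference turned, to -0.70, when wild-type P4 replicate 2 was left out. In wild type with age, where 2.33% were called higher, Drd2 (1.80, edgeR adjusted p = 3.71e-13) and Drd4 (2.004, edgeR adjusted p = 0.00486) were called. In Kir2.1 with age, where 4.96% were called higher, Drd4 was called (1.90, edgeR adjusted p = 0.000654). In all 4 calls the estimate was close to that of the filtered fit and the SE was smaller. In wild type with age the SE was 0.23 against 0.63 for Drd2 and 0.54 against 0.83 for Drd4. These calls thus rest on the smaller SEs and not on larger differences.

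Levels were compared between genes as CPM per kilobase of annotated exon. At P4, Drd1 was the highest of the 7 genes in 4 of 5 libraries, with group means of 5.67 ± 1.76 CPM per kb in wild type (SD, n = 2) and 5.52 ± 1.27 in Kir2.1 (SD, n = 3). Drd2 was first in wild-type P4 replicate 2, which put its wild-type P4 mean (6.74 ± 6.79 CPM per kb) above that of Drd1, and the wild-type ranges of the pair overlapped. At P8, Drd2 was first in all 6 libraries, at 23.5 ± 10.3 CPM per kb in wild type and 16.5 ± 8.3 in Kir2.1 (SD, n = 3 each), and Drd1 followed at 6.70 ± 0.27 and 6.66 ± 0.63. Drd4, Th and Slc18a2 came next at P8. Drd4 was at 1.68 ± 0.88 CPM per kb in wild type, and its range overlapped that of Th (1.23 ± 0.65), whereas Th lay above Slc18a2 (0.634 ± 0.172). Slc18a2 thus went from a place above Th and Drd4 at P4, at 3.38 ± 0.81 CPM per kb in wild type, to a place below them. Ddc and Slc6a3 had the lowest mean in every group. Their ranges overlapped except in wild type at P4, where Slc6a3 (0.0494 and 0.0733 CPM per kb) lay above Ddc (0 and 0.0189).

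The genes whose pattern over the 11 libraries was most like that of each gene were found by Pearson's r of log2(CPM + 0.5), among 15990 genes with a mean of at least 1 CPM. The libraries share age and cell make-up, so these values only describe. For Th they were Nhlh1 (0.974), Pcdhb16 (0.962) and Zfp385c (0.960). For Slc18a2 they were Nln (0.983), Tubb2b (0.981) and Tmsb10 (0.977). For Drd1 they were Slc30a4 (0.940), Sesn2 (0.938) and Vhl (0.930). For Drd2 they were Ccsap (0.990), Camkv (0.984) and Rnf152 (0.984), and for Drd4 Kdsr (0.957), Grin3b (0.956) and Rab18 (0.933).

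A list of 44 other dopamine genes covered the remaining receptors, cofactor enzymes, breakdown enzymes, other monoamine transporters, receptor signalling and the transcription factors of dopamine neurons. In it, 32 genes were tested, and the other 12 were too low. Those were Dbh, Drd3, En1, En2, Foxa1, Foxa2, Gchfr, Lmx1a, Lmx1b, Pitx3, Slc18a1 and Slc22a3, which include several factors that define midbrain dopamine neurons. Drd5, the other cAMP-raising receptor, had group means of 0.635 to 1.12 CPM. No list gene was called between the genotypes at P4 or P8 by edgeR, nor for the difference between the ages. The list's median log2 difference was -0.22 at P4 and -0.19 at P8, beside 0.01 and 0.00 over all genes. At P4 and P8 the medians were -0.44 and -0.54 for amacrine markers and -1.32 and -0.17 for ganglion cell markers. They were -0.33 and 0.88 for rod markers and -2.03 and 0.19 for bipolar markers. The part of these cell types in the list's medians was not tested.

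In the averaged age comparison, 4 of the 32 genes rose and 7 fell, a share to be read against the 22.8% of all genes called, and the median was 0.04 beside 0.02 over all genes. Leaving out 1 library gave 3 to 6 genes higher and 3 to 8 lower. In the same comparison all 10 rod markers rose, with a median log2 change of 2.91, and all 8 bipolar markers rose, with a median of 3.75. All 6 markers of dividing cells fell, with a median log2 change of -4.18, and all 10 ganglion cell markers fell, with a median of -2.36. The sum of dividing-cell markers was 831 to 2430 CPM at P4 and 66.7 to 112 CPM at P8. The part of these cell types in the list's changes was not tested. Gnb5, the G protein subunit that partners Rgs9, had group means of 28.9 and 25.4 CPM at P4 and 61.9 and 78.6 CPM at P8 in wild type and Kir2.1. It rose by 1.37 on the log2 scale (edgeR adjusted p = 0.000215). Rgs9, which speeds the shut-off of G proteins in photoreceptors and in striatal dopamine signalling, rose by 0.92 (edgeR adjusted p = 0.00454). Dnajc12, a co-chaperone of the aromatic amino acid hydroxylases that include tyrosine hydroxylase, rose by 0.91 (edgeR adjusted p = 0.000899). It went from 6.54 and 6.61 CPM in wild type and Kir2.1 at P4 to 13.0 and 11.8 CPM at P8. Gng7 rose by 1.51 (edgeR adjusted p = 0.0282), a call that held in 5 of 11 fits without 1 library and was lost, among others, without wild-type P4 replicate 1 (edgeR adjusted p = 0.144).

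Of the 7 genes that passed as lower, those with the largest changes were Slc6a4, Nr4a2, Gnai2 and Aldh2. Slc6a4, the serotonin transporter, which some ganglion cells express transiently in development, had 83 and 32 counts in wild type and 71, 15 and 13 in Kir2.1 at P4. At P8 it had 0, 9 and 0 counts in wild type and 0, 12 and 3 in Kir2.1. All P4 values except those of Kir2.1 replicates 2 and 3 lay above all P8 values. Its fitted change was -3.39 ± 0.91 (edgeR adjusted p = 0.0181), and the call was lost without wild-type P4 replicate 1 (edgeR adjusted p = 0.0909) or Kir2.1 P4 replicate 1. Leaving out 1 library moved the fitted change between -5.70, when wild-type P8 replicate 2 was dropped and that group had no count left, and -2.73, when Kir2.1 P4 replicate 1 was. Fitted values against a group at 0 depend on the prior count. Nr4a2 (Nurr1), a transcription factor that activates Th and Slc18a2 in midbrain neurons, went from 60.2 ± 10.2 CPM (SD, n = 2) to 36.4 ± 12.4 CPM (SD, n = 3) in wild type. In Kir2.1 it went from 58.7 ± 7.0 to 22.6 ± 5.2 CPM (SD, n = 3 each), and the averaged change was -1.05 (edgeR adjusted p = 0.00113). Gnai2, a subunit that lowers cAMP, changed by -0.97 (edgeR adjusted p = 0.000308) and Aldh2, an aldehyde dehydrogenase, by -0.76 (edgeR adjusted p = 0.00723). The calls for Gnb5, Rgs9, Dnajc12, Nr4a2, Gnai2 and Aldh2 held in all 11 fits without 1 library.

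**Figure D4:**
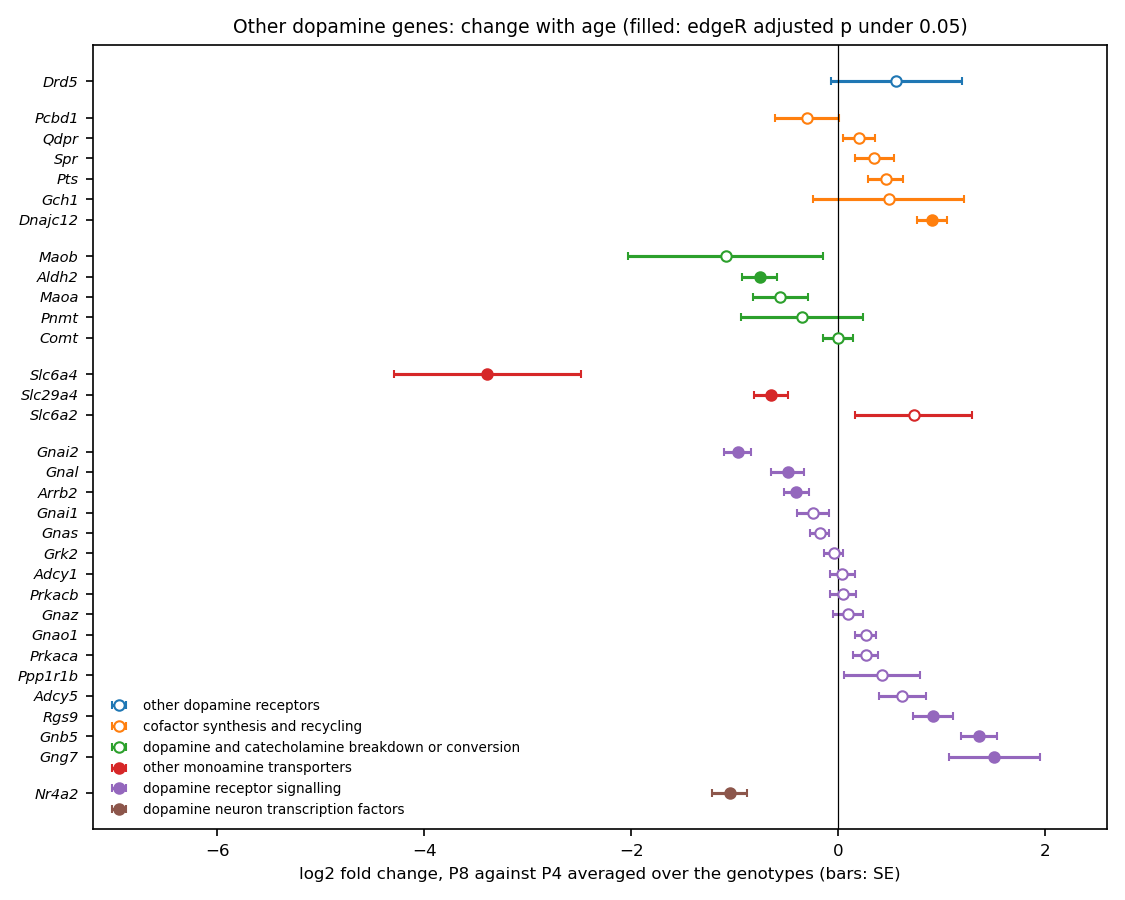
Log2 change from P4 to P8, averaged over the genotypes, with SE from edgeR, for the 32 other dopamine genes tested, coloured by group. Filled points pass an adjusted p of 0.05, and Slc6a4 (-3.39) lies at the low end and Gng7 (1.51) at the high end.

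Within wild type 2 of the 32 genes rose and 1 fell, where 4.39% of all genes were called. Dnajc12 changed by 0.99 (edgeR adjusted p = 0.0228), Gnb5 by 1.10 (edgeR adjusted p = 0.0338) and Gnai2 by -0.86 (edgeR adjusted p = 0.0263). Within Kir2.1 4 rose and 5 fell, where 16.7% of all genes were called. The genes called higher there were Gnb5 (1.63), Rgs9 (1.03), Dnajc12 (0.84) and Gnao1 (0.46), and the 4 lowest of the 5 called were Nr4a2 (-1.38), Gnai2 (-1.08), Aldh2 (-0.97) and Slc29a4 (-0.72). The larger count in Kir2.1 does not show that more list genes changed there, since the difference between the age effects was called for none of the 32 genes.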

How the data were processed

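RNA-seq of total RNA from retina was analysed in 11 libraries. The authors deposited whole-number counts per Ensembl gene for each library, and for each age a table of their own comparison. The columns of that table name no sample, and whether it rests on the deposited counts is not given in the sources used here. Per the file headers, that table holds a mean normalized signal, a log2 fold change with its SE, a score (the statistic) and p-values before and after adjustment. The submitters' processing notes name cutadapt 1.18, STAR 2.5.0c, SAMtools 1.9, bedtools 2.26.0, HTSeq 0.6.1, DESeq2 and mm10, with no role or order. The annotation and strand setting are not given in the sources used here. Rows that name no gene held 74.6% to 79.8% of a library's records and were left out.

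Counts were fitted with edgeR 4.0.16 in R 4.3.3 (filterByExpr by group, TMM, quasi-likelihood, 4 group means over all 11 libraries, common BCV 0.247, 7 residual df). Of 47069 genes, 18188 were tested, with Benjamini-Hochberg adjustment over all of them and a threshold of 0.05. CPM use TMM-scaled library sizes. Coordinates and exonic lengths are from GENCODE M21 (GRCm38). The script was tested on simulated data. Alternatives were DESeq2 1.42.0 size factors or its test, limma 3.58.1 voom with sample weights, other filters, only the groups compared, a replicate block, and leaving out each library. A fit that leaves out a wild-type P4 library assumes that the lone sample varies like the other groups.

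The 7 genes and all lists were chosen with earlier results of these data known. The 7 genes are always named. From the list of 44, the genes named in a comparison were those with an adjusted p under 0.05, at most the 4 highest and 4 lowest. Per gene, the 3 most alike were named.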

Additional observations from a re-analysis of the deposited data

How the results depend on the processing

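No gene was called by edgeR between the genotypes at P4 or P8 or for the difference between ages. DESeq2 called 34 genes at P4 and 3 at P8, and edgeR without a filter called 339, 447 and 136. Leaving out 1 library gave 0 to 6 genes at P4, 0 to 219 at P8 (219 without wild-type P8 replicate 3) and 0 to 1 for the difference. The age comparison called 798 genes in wild type, against 1545 by DESeq2, 2058 without a filter, 113 with only the groups compared and 163 to 1339 without 1 library. Without 1 library the count was 1764 to 2169 in Kir2.1, against 3029, and 2133 to 4417 averaged, against 4140. Fewer samples enter these fits, and the cause was otherwise not tested.

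Over all alternatives, the log2 differences of the 5 genes tested kept their direction and side of the threshold in 373 values, changed sign in 27, newly passed in 11 and no longer passed in 9. The sign changed only for differences that had not passed the test. With voom, Drd1 at P8 was 0.0024, and Drd4 was -0.28 at P4, 0.61 at P8 and 0.88 for the difference between ages. Without 1 library, Th at P4 ran from -0.32 to 0.44, Drd1 from -0.33 to 0.32 at P4, -0.085 to 0.0497 at P8, -0.33 to 0.32 for the difference and -0.0492 to 0.60 with age in wild type. Drd2 ran from -2.39 to 0.18 at P4 and -0.70 to 1.88 for the difference, and Drd4 from -0.87 to 1.26 at P4, -0.40 to 0.37 at P8 and -1.32 to 0.80 for the difference. The cause was not tested.

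The labels give no pairing of samples by replicate number. Same-numbered deviations correlated at 0.152 and 0.0654 at P4 and at 0.119, 0.00144 and -0.100 at P8. Between the ages they correlated at 0.0129 and 0.0262 in wild type and at 0.0626, 0.164 and 0.156 in Kir2.1. Differently numbered libraries reached 0.180. With the replicate number as a block, the age comparisons called 558 genes in wild type, 2928 in Kir2.1 and 3721 averaged. In that block fit Th (1.42, edgeR adjusted p = 0.0602) and Drd4 (2.02, edgeR adjusted p = 0.0546) missed the threshold in the averaged comparison, and Drd1 at P8 was 0.0041. Depth limits Ddc, Slc6a3 and Th, which had at most 8, 12 and 51 counts in a library. The wild-type P4 group of 2 libraries limits each comparison that uses it.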
